A study of Rattus norvegicus with 10 samples.

Results

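The microRNAs described here belong to the seed families of miR-15 and miR-16 and of miR-103 and miR-107. They were taken as every endogenous microRNA of the count panel numbered miR-15, miR-16, miR-195, miR-497, miR-103 or miR-107, with any letter or arm, which gave 6 of 420 microRNAs (miR-15b, miR-16, miR-195, miR-497, miR-103 and miR-107). RNA came from punches of dorsal vagal complex (DVC) tissue, the brainstem area that holds the dorsal motor nucleus of the vagus and the nucleus of the solitary tract. The punches were cut from 200 µm sections of 10 adult male Sprague-Dawley rats, and each sample is 1 animal. The 4 groups were age matched controls (AMC, n = 3), remote ischemic preconditioning (RIPC, a bout of blood flow block in the hind limbs, n = 2), tying of the left anterior descending artery of the heart (LAD, n = 3), and RIPC with that artery tied 2 h afterwards (RIPC+LAD, n = 2). Tissue was collected 24 h after the ligation. By the study's methods, the RIPC animals, which had no ligation, were collected as long after RIPC as the RIPC+LAD animals. No sham-operated group was among the samples, so ligation or preconditioning cannot be told apart from anesthesia and surgery in any comparison with AMC. RIPC+LAD animals also had the leg surgery of RIPC, which LAD animals lacked. Between those groups, preconditioning cannot be told apart from that surgery. In a bulk punch, fewer cells of a type and less RNA per cell cannot be told apart either.

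A microRNA is loaded into an Argonaute protein and guides it to messenger RNAs, mostly through its seed, the stretch near its 5′ end that pairs with the target. MicroRNAs with 1 seed therefore share many predicted targets. The family of miR-15 and miR-16 is best known for lowering cyclins and the survival protein Bcl-2, and its members slow the cell cycle in many tissues, the heart among them. miR-103 and miR-107 lie within the genes of the pantothenate kinases, the first enzymes of coenzyme A synthesis, and are known for repressing Dicer and for acting on insulin sensitivity. miR-16 is also abundant in red blood cells, and the heart and the brain both express these families.

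The mature sequences are shown because the families differ by where the same core sits. They are RefSeq's (assembly GRCr8), with capitals for the seed, bases 2 to 8. All 6 members matched by name. The panel gives no arm, and the arm that carries the family seed was taken.
miR-15b: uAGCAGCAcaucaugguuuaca
miR-16: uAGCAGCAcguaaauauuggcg
miR-195: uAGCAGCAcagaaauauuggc
miR-497: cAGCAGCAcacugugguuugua
miR-103: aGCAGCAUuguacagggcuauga
miR-107: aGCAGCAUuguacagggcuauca
miR-322: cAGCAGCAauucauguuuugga
miR-503: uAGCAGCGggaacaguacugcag

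miR-15b, miR-16, miR-195 and miR-497 share the seed AGCAGCA, and miR-103 and miR-107 share GCAGCAU, the same core moved 1 base toward the 5′ end. miR-322 is outside the member rule but has the seed of miR-16, and miR-503, beside it on chromosome X, differs from that seed in its last base. miR-103 and miR-107 differ at 1 of 23 positions, G22C counted from the 5′ end, with the base of miR-103 given first. miR-16 and miR-195 differ at 2 of 21 positions. How far the panel separates such close pairs was not tested.

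The members come from separate places in the genome. miR-15b (chr2:155555197-155555218) and miR-16 (chr2:155555343-155555364) lie on the plus strand of chromosome 2 with 124 bases between them, within the bounds of Smc4, a condensin subunit gene. miR-497 (chr10:55450172-55450193) and miR-195 (chr10:55450509-55450529) lie on the plus strand of chromosome 10 with 315 bases between them and no overlapping gene in the annotation used. miR-107 (chr1:241750431-241750453, minus strand) lies within Pank1. miR-103 is encoded by 2 hairpins, within Pank2 on chromosome 3 and Pank3 on chromosome 10, which give 1 mature sequence.

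Depth differed between animals. Total microRNA counts ran from 28485 to 102824, with the fewest in LAD 3 (28485) and LAD 2 (42893), and scarce members are least precise there. By their counts of the brightest positive control, POS_A, samples fell into a high set (AMC 1, AMC 2, AMC 3, RIPC 2 and LAD 1) and a low set (RIPC 1, LAD 2, LAD 3 and both RIPC+LAD animals). LAD 2 and LAD 3 share the prefix of their animal numbers, as do AMC 2 and AMC 3 and the RIPC+LAD animals, and the labels do not say what it marks. All 7 neuron-enriched microRNAs of a marker list were detected, as were 3 of 5 of a hindbrain and spinal cord list. Over the panel 253 of 420 were detected, by the rule given below. A striated muscle list also had 3 of 5 detected, and a choroid plexus and ciliated cell list 5 of 5. These counts thus do not mark the tissue.

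A microRNA was called detected when its count passed the mean plus 2 SD of the 8 negative controls of the sample in at least 2 samples, which held for 253 of 420 microRNAs and 5 of the 6 members. miR-107, miR-16, miR-15b and miR-103 passed in all 10 samples. They ranked 15, 24, 65 and 90 of 253 by mean level. Because each probe has its own efficiency, the order of counts between microRNAs is not an order of molecules.

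miR-107 had the highest counts of the 6 members. It had 1899, 1641 and 2285 counts in the AMC animals, 2088 and 1418 after RIPC, 1909, 718 and 411 after LAD, and 1965 and 2358 in RIPC+LAD. It took between 1.44 and 2.53% of all microRNA counts of a sample. Its lowest counts fell in LAD 2 and LAD 3, the samples with the fewest counts of any kind.

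After scaling to log2 CPM, counts relative to the scaled library total, miR-107 stood at 14.25, 14.03 and 14.58 in AMC and at 14.63 and 13.97 in RIPC. It stood at 14.22, 13.93 and 13.79 in LAD and at 14.68 and 14.73 in RIPC+LAD. Both RIPC+LAD animals were above all 8 other animals, while AMC, RIPC and LAD overlapped. Of 253 detected microRNAs, 18.6% were higher without overlap in RIPC+LAD than in LAD, and 17.0% than in AMC. The share above all 8 other animals was not counted. Outside the members, miR-100, miR-185, miR-191 and miR-23b were among those with this order.

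miR-16 was likewise highest in RIPC+LAD and, by group mean, lowest in LAD. Its counts were 925, 767 and 955 in AMC, 997 and 577 in RIPC, 978, 357 and 196 in LAD, and 1065 and 1129 in RIPC+LAD. Its log2 CPM was 13.21, 12.94 and 13.33 in AMC, 13.57 and 12.68 in RIPC, 13.26, 12.92 and 12.73 in LAD, and 13.80 and 13.67 in RIPC+LAD. The RIPC+LAD animals were again the highest of all, as they were for miR-185 and miR-191 outside the members, and RIPC 1 came next. The group means were 13.16 ± 0.20 (SD, n = 3) for AMC, 13.12 ± 0.63 (SD, n = 2) for RIPC, 12.97 ± 0.27 (SD, n = 3) for LAD and 13.73 ± 0.09 (SD, n = 2) for RIPC+LAD.

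miR-15b, the neighbor of miR-16 in Smc4, did not have its highest values in RIPC+LAD. Its counts were 134, 102 and 134 in AMC, 109 and 90 in RIPC, 158, 62 and 39 in LAD, and 92 and 108 in RIPC+LAD. Its log2 CPM was 10.45, 10.06 and 10.51 in AMC, 10.40 and 10.03 in RIPC, 10.65, 10.42 and 10.42 in LAD, and 10.29 and 10.31 in RIPC+LAD. The LAD animals were all above the RIPC+LAD animals, by a margin smaller than the spread within AMC. miR-15b was among the steadiest microRNAs of the panel, with a within-group SD of 0.19 on the log2 scale, rank 6 from the smallest of 253, against a median of 0.42 over all. The same SD was 0.28 for miR-107, 0.32 for miR-16 and 0.34 for miR-103.

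miR-103, which differs from miR-107 by 1 base, was counted at a small share of it. Its counts were 54, 63 and 39 in AMC, 46 and 63 in RIPC, 67, 21 and 11 in LAD, and 50 and 83 in RIPC+LAD. Its log2 CPM was 9.17, 9.38 and 8.79 in AMC, 9.19 and 9.53 in RIPC, 9.44, 8.91 and 8.66 in LAD, and 9.43 and 9.94 in RIPC+LAD. RIPC+LAD 1 lay just above the highest AMC animal and just below LAD 1, so the combined group was clear of AMC but overlapped LAD.

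The chromosome 10 pair was scarce. miR-195 had 9, 11 and 5 counts in AMC, 9 and 3 in RIPC, 18, 7 and 2 in LAD, and 6 and 13 in RIPC+LAD, and passed the detection threshold in 5 of 10 samples. Its within-group SD of 0.58 on the log2 scale was larger than the median of all microRNAs. miR-497 had 1 to 8 counts and passed in 0 of 10 samples, so it was not detectable at this depth and was not tested. On chromosome X, miR-322 had 19 to 57 counts and passed in all 10 samples, and miR-503 had 1 to 4 counts and passed in none.

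**Figure D1:**
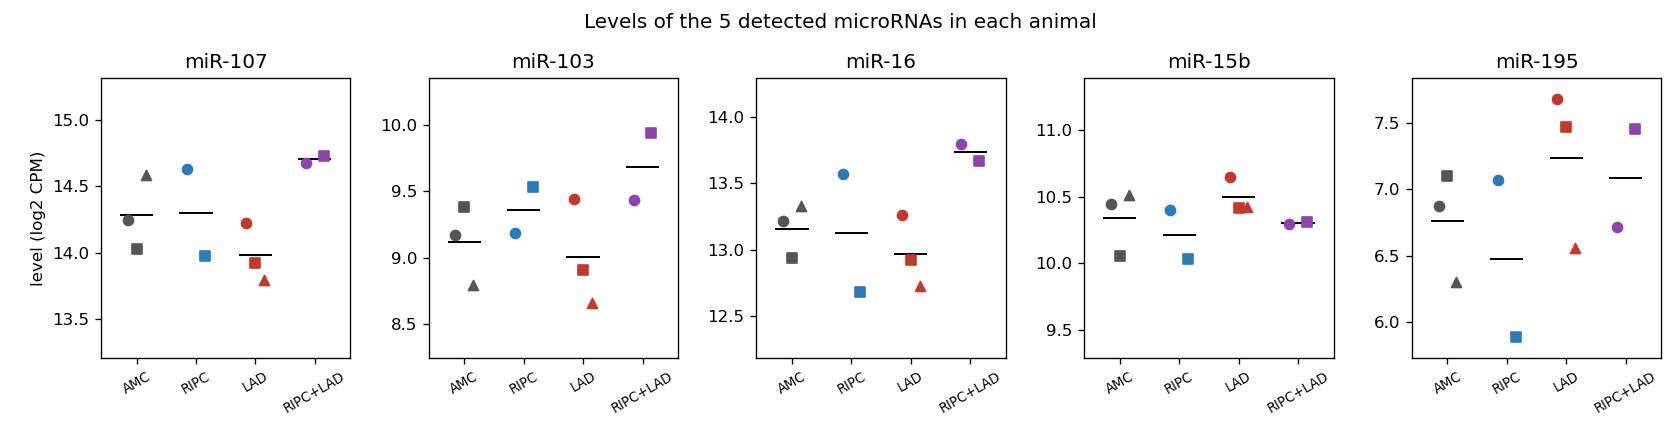
Levels in log2 CPM (vertical axis, the same span in every panel) of the 5 detected members in each animal of the 4 groups (horizontal axis); each point is 1 animal, symbols mark replicate number and lines mark group means. The RIPC+LAD animals are the highest of all 10 for miR-107 and miR-16 but not for miR-103, miR-15b or miR-195. Other microRNAs, such as miR-185 and miR-191, also have the RIPC+LAD animals highest, and how many of the panel do was not counted.

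The pair miR-16 and miR-107 kept a nearly fixed proportion although they come from different chromosomes. miR-16 counts were between 40.7 and 54.2% of miR-107 counts in the 10 animals, and the log2 ratio was -1.07 ± 0.12 (SD, n = 10), with every pair of groups compared overlapping. Of the 252 other detected microRNAs, each was the one most correlated with the other across the 10 samples (Pearson r = 0.95, Spearman rho = 0.94), and r was 0.94 once group means were removed. These samples share differences in depth and in control counts, given below, so r is a description only. Outside the 6 members, the microRNAs most like miR-16 were miR-151 (r = 0.85) and miR-141 (r = 0.85), and those most like miR-107 were miR-185 (r = 0.87) and miR-29a (r = 0.83).

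miR-15b and miR-16 were less alike across all animals than within groups. Their r was 0.29 over the 10 samples, which placed miR-15b at rank 82 of 252 for likeness to miR-16, and 0.87 once group means were removed. That second r was no lower for miR-15b with miR-107, from another chromosome, at 0.91. No rank was taken once group means were removed. The most similar microRNAs to miR-15b outside the members were miR-101b (r = 0.73) and miR-183 (r = 0.70). For miR-103 and miR-107, r was 0.42 over all samples and -0.16 with group means removed. Those most like miR-103 were miR-384-5p (r = 0.84) and miR-340-3p (r = 0.82), and those most like miR-195 were miR-291b (r = 0.75) and miR-212 (r = 0.68).

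A ratio of counts within a sample needs no scaling between samples. As a share of miR-16 counts, miR-15b was 14.49, 13.30 and 14.03% in AMC, 10.93 and 15.60% in RIPC, 16.16, 17.37 and 19.90% in LAD, and 8.64 and 9.57% in RIPC+LAD. For AMC the log2 ratio was -2.84 ± 0.06 (SD, n = 3), and for LAD it was -2.49 ± 0.15 (SD, n = 3). For RIPC it was -2.94 ± 0.36 (SD, n = 2), and for RIPC+LAD it was -3.46 ± 0.10 (SD, n = 2). Every LAD animal was above every AMC animal, and both RIPC+LAD animals were below all others. The counting error of 1 log2 ratio was between 0.12 and 0.25, against a difference of -0.96 between RIPC+LAD and LAD and of 0.35 between LAD and AMC.

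This low ratio was not particular to miR-15b. Set against miR-16 in the same way, 120 of 252 detected microRNAs (47.6%) were lower in RIPC+LAD than in LAD with no overlap, and 116 (46.0%) were lower in RIPC+LAD than in AMC. The LAD to AMC difference, higher without overlap, was shared by 16 of 252 (6.35%), but by size it ranked 90 from the highest of 252, whose median was 0.17. The RIPC+LAD to LAD difference of miR-15b ranked 99 from the lowest of 252, whose median was -0.69. The miR-322 ratio to miR-16 was lower by a similar step, with a difference of -0.69 between RIPC+LAD and LAD. No test was run on ratios.

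miR-103 counts were between 1.71 and 4.44% of miR-107 counts, and the log2 ratio was -5.10 ± 0.41 (SD, n = 10). No pair of groups compared was clear of overlap, and the ratio varied most within AMC and RIPC.

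**Figure D2:**
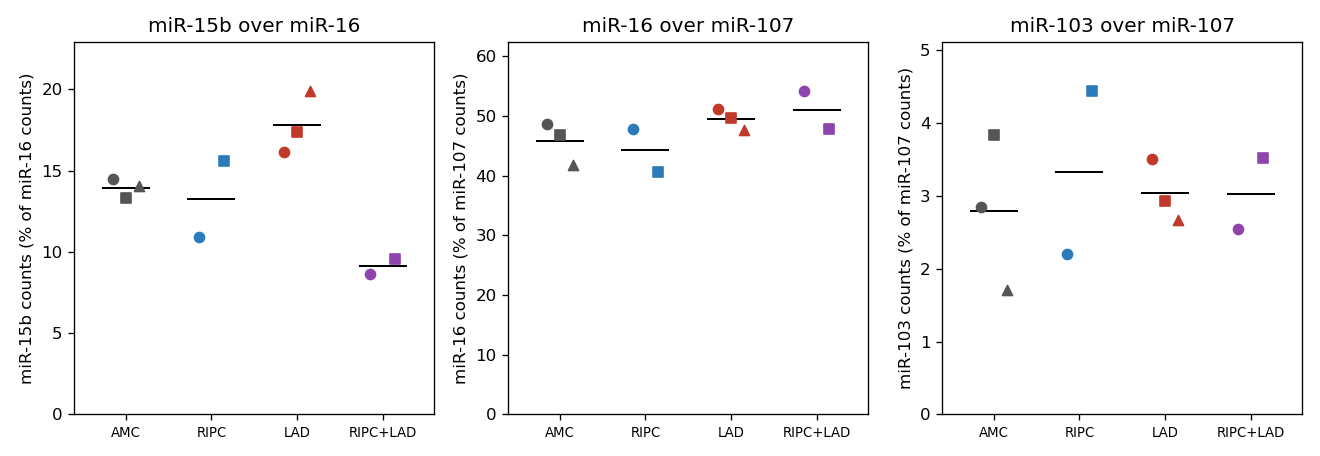
Counts of 1 microRNA as a percent of the counts of another in the same sample (vertical axes, from 0) in the 4 groups (horizontal axes); points are animals, symbols mark replicate number and lines mark group means. miR-15b over miR-16 is lowest in RIPC+LAD (8.64 and 9.57%) and highest in LAD (16.16 to 19.90%), while miR-16 over miR-107 stays between 40.7 and 54.2%.

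RIPC+LAD was set against LAD to ask whether preconditioning, with its leg surgery, goes with another brainstem profile in animals whose artery is then tied. miR-16 and miR-107 were higher in RIPC+LAD, but neither passed the test across all detected microRNAs. The log2 fold change of miR-16 was 0.75 ± 0.31 (SE; 95% confidence interval 0.08 to 1.41; 1.68-fold), with an unadjusted p of 0.0301 and an adjusted p of 0.241 in the edgeR quasi-likelihood test with Benjamini-Hochberg adjustment. That of miR-107 was 0.71 ± 0.30 (SE; 0.08 to 1.35; 1.64-fold), with an unadjusted p of 0.0304 and an adjusted p of 0.241 in edgeR. miR-103 was at 0.64 ± 0.35 (SE; edgeR adjusted p = 0.326), miR-15b at -0.21 ± 0.30 (SE; edgeR adjusted p = 0.691) and miR-195 at -0.33 ± 0.54 (SE; edgeR adjusted p = 0.741).

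The background for this comparison is broad. No microRNA of 253 (0.00%) had an edgeR adjusted p under 0.05, and 44 (17.4%) had an unadjusted p under 0.05, against 32 with DESeq2 and 46 with limma-voom. Of the 5 members tested, 2 had an unadjusted edgeR p under 0.05. Above 0 were 3 of the 5, against 130 of 253 over the panel and 43 of the 63 most abundant. The median log2 fold change of the members was 0.64, against 0.02 over all 253 and 0.26 over those 63. Groups did not overlap, RIPC+LAD higher, for 47 of 253 (18.6%), miR-16 and miR-107 among them. They did not overlap in the other direction for 49 (19.4%), miR-15b among them.

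The values depended on which LAD animals were kept. With LAD 1 as the only LAD sample, a setting chosen after seeing the data, the log2 fold change was 0.36 for miR-16, 0.37 for miR-107, 0.16 for miR-103 and -0.47 for miR-15b. That arm has 1 animal, and it is assumed to vary like the other groups. LAD 1 also stood apart in a marker sum: the summed level of the choroid plexus and ciliated cell list was 191268 CPM in it, against 19170 in LAD 2 and 22498 in LAD 3. Most of that sum was miR-204 (17.52 log2 CPM in LAD 1). Of the list, miR-34b, miR-34c and miR-448 were also highest in LAD 1 among the LAD animals. But miR-449a was level, at 8.63, 8.62 and 8.66 log2 CPM in LAD 1, LAD 2 and LAD 3. Within the low POS_A set alone, which holds LAD 2, LAD 3 and both RIPC+LAD animals, miR-16 was at 0.87 and miR-107 at 0.81, each with an edgeR adjusted p of 0.123, and miR-103 was at 0.91 (edgeR unadjusted p = 0.0285, adjusted p = 0.177). With the POS_A set as a covariate over all samples, miR-103 was at 0.88 ± 0.35 (SE; edgeR unadjusted p = 0.0268, adjusted p = 0.297). Unadjusted edgeR p-values under 0.05 were held by 47 of 253 microRNAs within the low set and by 32 of 253 with the covariate. Without RIPC+LAD 2, miR-103 was at 0.29.

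Summed marker lists of other cells also differed between these groups. The summed level of the oligodendrocyte list (3 of 3 detected) was 19565 to 47784 CPM in LAD and 10555 to 18966 in RIPC+LAD, and that of the leukocyte list (3 of 4 detected) was 16805 to 18824 and 11362 to 14911. The neuron list (7 of 7 detected) was the other way, at 139521 to 159250 in LAD and 162125 to 174719 in RIPC+LAD. None of these sums overlapped between the groups, while those of the hindbrain, choroid plexus, vascular and striated muscle lists did. A sum is weighted to its most abundant members, and single members were mixed. In log2 CPM, miR-338, miR-150, miR-137, miR-129 and miR-218a did not overlap between the groups. But miR-219-5p, miR-219-2-3p, miR-142-3p, miR-142-5p, miR-124, miR-9, miR-128 and miR-132 did. The part of cell content in the values of miR-16 and miR-107 was not tested.

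The comparison of LAD with AMC sets ligation, together with its anesthesia and surgery, beside age matched controls. Every member's interval included 0. The log2 fold changes were -0.31 ± 0.27 (SE; interval -0.89 to 0.26) for miR-107, -0.18 ± 0.28 (SE) for miR-16, -0.05 ± 0.32 (SE) for miR-103, 0.16 ± 0.27 (SE) for miR-15b and 0.76 ± 0.49 (SE; interval -0.29 to 1.81) for miR-195. The lowest edgeR adjusted p among them was 0.967. No member was clear of overlap, against 14 of 253 higher (5.53%) and 9 lower (3.56%) over the panel. The adjusted test called 0.00% and the unadjusted test 14 (5.53%, DESeq2 4, limma-voom 13), with no member among them. With LAD 1 as the only LAD sample, miR-16 was at 0.15 and miR-103 at 0.38.

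For RIPC against AMC the members differed by less than their errors. The log2 fold changes were 0.03 ± 0.30 (SE) for miR-107, 0.02 ± 0.32 (SE) for miR-16, 0.24 ± 0.34 (SE) for miR-103, -0.13 ± 0.30 (SE) for miR-15b and -0.28 ± 0.58 (SE) for miR-195, each with an edgeR adjusted p of 0.997. The RIPC animals lay far apart, RIPC 1 being higher than RIPC 2 for miR-107, miR-16, miR-15b and miR-195 and lower for miR-103. Their choroid plexus and ciliated cell sums also differed, at 109416 CPM in RIPC 1 and 20612 in RIPC 2. Without RIPC 1 the value of miR-16 was -0.49, and without RIPC 2 it was 0.40. No member was clear of overlap, against 17 higher (6.72%) and 13 lower (5.14%) of 253. The adjusted test called 0.00% and the unadjusted test 3 (1.19%, DESeq2 2, limma-voom 3), with no member among them.

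RIPC+LAD against AMC sets the combined treatment beside untreated animals. miR-103 was at 0.60 ± 0.33 (SE) and miR-16 at 0.57 ± 0.31 (SE), each with an edgeR adjusted p of 0.596. miR-107 was at 0.40 ± 0.30 (SE; edgeR adjusted p = 0.656), miR-195 at 0.43 ± 0.54 (SE) and miR-15b at -0.05 ± 0.30 (SE). miR-103, miR-107 and miR-16 were higher with no overlap, as were 43 of 253 (17.0%), and no member was among the 35 lower (13.8%). The adjusted test called 0.00% and the unadjusted test 22 (8.70%, DESeq2 15, limma-voom 21), with no member among them. All AMC animals were in the high POS_A set and both RIPC+LAD animals in the low set, so within neither set can this comparison be made. With the set as a covariate, estimated from the other groups, miR-103 was at 1.12 ± 0.45 (SE; edgeR unadjusted p = 0.0272, adjusted p = 0.909), and miR-16 at 0.46 ± 0.44 (SE). In that fit 6 of 253 microRNAs had an unadjusted edgeR p under 0.05. Without RIPC+LAD 2, miR-103 was at 0.27. This comparison shares its RIPC+LAD animals with the one against LAD and its AMC animals with the other contrasts.

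The interaction asks whether the difference between ligated and unligated animals depends on preconditioning. It was 0.72 ± 0.45 (SE; interval -0.23 to 1.67; edgeR adjusted p = 0.491) for miR-16 and 0.68 ± 0.43 (SE; interval -0.23 to 1.59; edgeR adjusted p = 0.495) for miR-107. It was 0.40 ± 0.49 (SE) for miR-103, -0.08 ± 0.42 (SE) for miR-15b and -0.05 ± 0.83 (SE) for miR-195. The interaction depended on which RIPC animal was kept. It was 1.23 without RIPC 1 and 0.35 without RIPC 2 for miR-16, and 1.04 and 0.39 for miR-107. Each of these fits leaves 1 RIPC animal. The adjusted test called 0.00% and the unadjusted test 31 of 253 (12.3%, DESeq2 17, limma-voom 28), with no member among them. A test for any difference among the 4 groups gave edgeR adjusted p-values of 0.702 for miR-16, 0.719 for miR-107, miR-103 and miR-195, and 0.920 for miR-15b. Over the panel it called 0.00% adjusted and 22 of 253 unadjusted (8.70%, DESeq2 16, limma-voom 24).

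**Figure D3:**
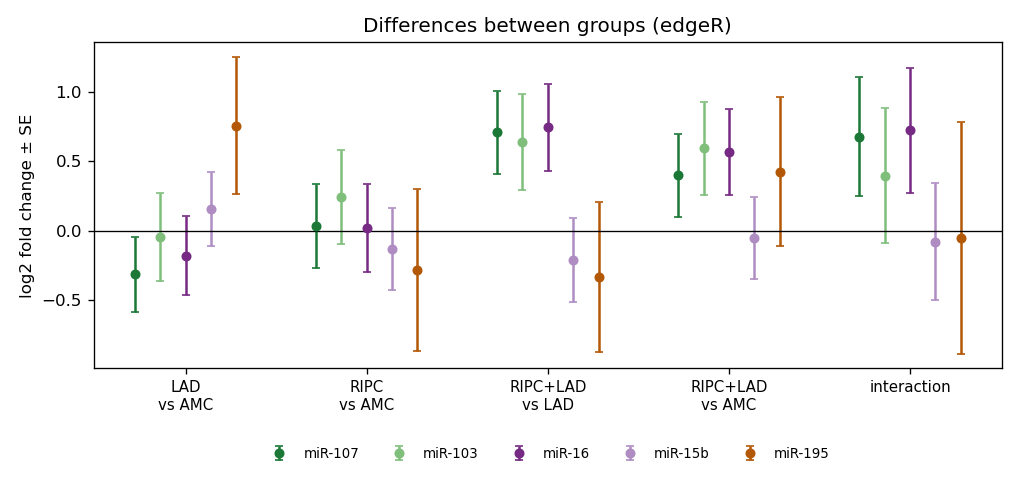
Log2 fold change with its SE (vertical axis) of the 5 detected members in 4 group comparisons and the interaction of RIPC and LAD (horizontal axis), from the edgeR fit over all 10 samples. miR-107, miR-103 and miR-16 sit at 0.64 to 0.75 in RIPC+LAD vs LAD while miR-15b and miR-195 sit below 0; no value passed the adjusted test.

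The panel carries synthetic positive ligation controls, which report how well microRNAs were joined to their tags before counting. Their mean, as a percent of POS_A, was 19.80, 16.10 and 35.14 in AMC, 32.95 and 16.04 in RIPC, 15.02, 22.35 and 10.01 in LAD, and 45.51 and 70.90 in RIPC+LAD. The 4 highest samples were both RIPC+LAD animals, AMC 3 and RIPC 1. The same 4 were the highest for miR-16 and for miR-107, as for 11 of 253 microRNAs (4.35%), a count made after these values were seen. They were not the highest 4 for miR-15b, miR-103 or miR-195.

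With the ligation control as a covariate in edgeR, the RIPC+LAD to LAD log2 fold change was 0.07 ± 0.52 (SE) for miR-16 and 0.002 ± 0.48 (SE) for miR-107, against 0.95 ± 0.63 (SE) for miR-103. The interaction was 0.10 for miR-16 and -0.0042 for miR-107. Both RIPC+LAD animals lay above all others in this control, so the treatment and the control cannot be told apart for them. POS_A, the divisor of the control, was itself low in them, at 6725 and 7264 counts against 7049 to 14579 in the others. The ligation covariate is therefore not separate from the POS_A set.

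**Figure D4:**
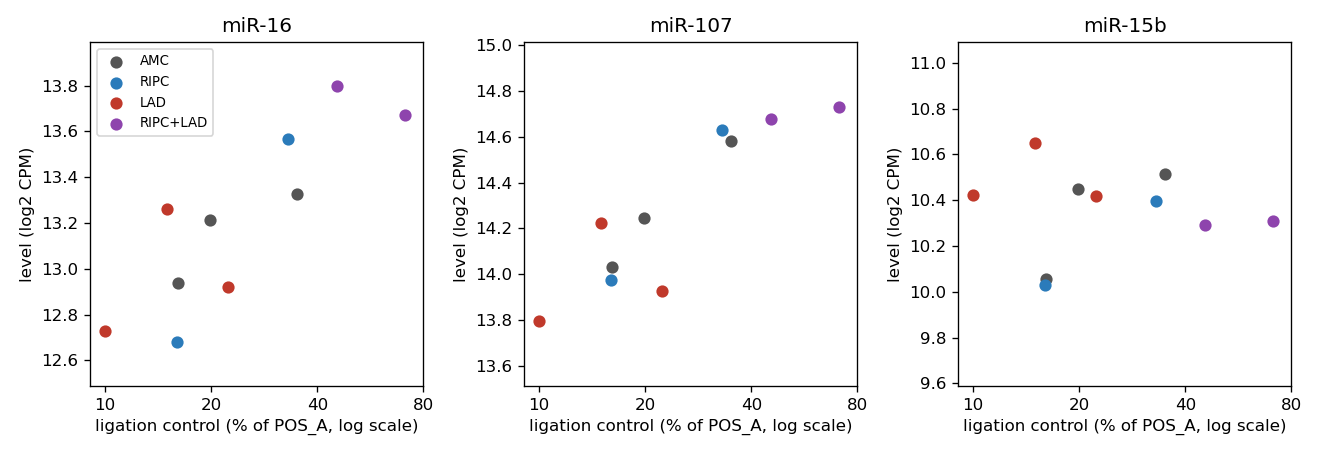
Level in log2 CPM (vertical axes, the same span in every panel) against the mean positive ligation control as a percent of POS_A (horizontal axes, log scale), with 1 point per animal colored by group. The 4 animals with the highest control are the 4 highest for miR-16 and miR-107, and miR-15b shows no such order.

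miR-16 is also a red cell microRNA, so the erythrocyte markers are given beside it. miR-451, which marks erythrocytes, had 15, 11 and 17 counts in AMC, 15 and 16 in RIPC, 14, 15 and 4 in LAD, and 8 and 9 in RIPC+LAD. The summed level of the list (miR-451 and miR-144, both detected, with 2 of 3 of its members on the panel) was 153 to 333 CPM in AMC, 231 to 272 in RIPC, 170 to 455 in LAD and 127 to 147 in RIPC+LAD. The RIPC+LAD animals lay below all others in this sum and in miR-451 CPM. In miR-144 they did not: it was 40.01 CPM in RIPC+LAD 1, against 30.02 in LAD 1 and 34.51 in LAD 3, all below the detection threshold. The part of red cells in the level of miR-16 was not tested. The RIPC+LAD to LAD log2 fold change of miR-451 was -0.90 ± 0.48 (SE; edgeR adjusted p = 0.326).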

How the data were processed

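The authors assayed DVC punch RNA with the NanoString nCounter rat microRNA panel, which counts ligated microRNAs by barcode, with no amplification. Deposited counts are whole numbers, for 420 microRNAs, 4 mRNAs and 6 positive, 8 negative and 6 ligation controls; no source used here names the counting software. The lowest count is 1. A second deposited table of the authors holds log2 values of 146 microRNAs, 4 members among them, which equal the log2 of counts per 100000 microRNA counts within 4.98e-09.

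Groups came from the treatment labels. Counts were scaled by TMM and tested in edgeR 4.0.16 (R 4.3.3) with the quasi-likelihood F test, all 10 samples in 1 fit, and p-values were adjusted by Benjamini-Hochberg over 253 microRNAs per contrast (threshold 0.05). For log2 CPM the prior count was 2. Each SE was derived from F, by dividing the size of the log2 fold change by the square root of F, and gave the 95% intervals. The fit was tested on 5 simulated sets for each of the 4 group comparisons, with 40 of 253 microRNAs changed in each set. Per comparison it called 18 to 25 of 100 changes of 1 on the log2 scale. It called 68 to 85 of 100 changes of 2, with 2 to 7 false calls. Changes of 1 were thus mostly missed. Pairs within a group differed in counts (chi-square over its degrees of freedom 7.95 to 45.6), so none was a repeat. DESeq2 1.42.0, limma 3.58.1, other scalings, filters, covariates and left-out samples were alternatives.

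Named microRNAs were all members, miR-322 and miR-503 for their sequence, the 2 most correlated non-members of each detected member, and the erythrocyte pair. Members, lists and tests were chosen with earlier results of these data known. Animals are the replicates. Counts were not corrected for probe efficiency, and counting errors cover counting only.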

Additional observations from a re-analysis of the deposited data

How the results depend on the processing

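No member was called under any alternative; the lowest adjusted p was 0.102, for miR-16 and miR-107 in RIPC+LAD vs LAD with animal-number prefix as random block in limma. Its estimated correlation was -0.227, and a negative correlation within prefixes, which are nested in groups, lowers these p-values. Of 575 alternative values for the members, 529 kept their direction and call and 46 changed sign, none of them called. Each count of called microRNAs was 0 in the fit reported, and moved only as follows. It was 1 with DESeq2 in RIPC+LAD vs AMC, 1 with the prefix block in RIPC+LAD vs LAD, again 1 with it in the interaction, and 4 within the high POS_A set in LAD vs AMC, where LAD 1 is the only LAD animal and is assumed to vary like the others. The same lone animal in the fit with all groups gave 0. It was 3 for RIPC+LAD vs LAD and 2 for the interaction with LAD 1 as the only LAD sample (chosen after seeing the data). Leaving out each sample gave 0 to 1 in RIPC+LAD vs AMC (1 without AMC 3 and without LAD 1) and in the interaction (1 without RIPC 1). No paired analysis was possible because each sample is a different animal and the labels pair no animals across groups.

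These log2 fold changes changed sign, and the cause was not tested. In LAD vs AMC, miR-103 was at 0.081 with scaling to the top 100 microRNAs, 0.019 with only the authors' microRNAs, 0.24 with the POS_A set as covariate, 0.38 within the high set and 0.38 with LAD 1 alone, and miR-16 was at 0.15 within the high set, 0.15 with LAD 1 alone and 0.036 with the ligation covariate. In RIPC vs AMC, miR-107 was at -0.0057 with negative controls subtracted, -0.0036 with the POS_A covariate and -0.31 within the high set. There miR-16 was at -0.022 with negative controls subtracted, -0.036 with limma-voom, -0.049 with the POS_A covariate, -0.47 within the high set, -0.029 with the ligation covariate, -0.032 with the prefix block and -0.0098 with LAD 1 alone. In RIPC+LAD vs AMC, miR-107 was at -0.076 and miR-195 at -0.10 with the ligation covariate, and miR-15b at 0.037 with no detection filter. In the interaction, miR-107 was at -0.0042 with the ligation covariate, miR-103 at -0.062 with LAD 1 alone, and miR-195 at 0.048 with limma-voom and 0.075 with the prefix block.

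Leaving out each sample gave ranges that crossed 0 for miR-103 in LAD vs AMC (-0.36 to 0.14). In RIPC vs AMC they crossed 0 for miR-107 (-0.33 to 0.33), miR-16 (-0.49 to 0.40), miR-15b (-0.33 to 0.045) and miR-195 (-1.30 to 0.34). In RIPC+LAD vs AMC they did so for miR-15b (-0.26 to 0.037) and miR-195 (-0.15 to 0.72), and in the interaction for miR-15b (-0.26 to 0.12) and miR-195 (-0.67 to 0.97). In RIPC+LAD vs LAD the range stayed above 0 for miR-16 (0.54 to 0.87) and miR-107 (0.53 to 0.80), and for miR-103 it was 0.29 to 0.90. For miR-103 in RIPC+LAD vs AMC it was 0.27 to 0.76. In the interaction it was 0.35 to 1.23 for miR-16, 0.39 to 1.04 for miR-107 and 0.07 to 0.67 for miR-103. For RIPC+LAD vs LAD, unadjusted edgeR p-values were also taken with LAD 2, LAD 3 or either RIPC+LAD animal left out. Those of miR-16 and miR-107 lay between 0.0631 and 0.165. That of miR-107 was 0.0501 without AMC 2. Fewer counts limit scarce members most in LAD 3. The median of all microRNAs shifted under scaling to the top 100, by -0.25 for the interaction, -0.18 for RIPC+LAD vs LAD and 0.14 for LAD vs AMC. Without TMM factors it shifted by -0.22 for the interaction and -0.13 for RIPC+LAD vs LAD. With these scalings, miR-16 in RIPC+LAD vs LAD was at 0.57 and 0.61.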
